A study of Mus musculus with 30 samples.

Results

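The genes followed here are the glucose transporter Slc2a1 and 9 enzymes of glycolysis, Hk2, Pfkp, Pfkfb3, Aldoa, Gapdh, Pgk1, Eno1, Pkm and Ldha. The rule takes them by name and uses no measured value, although earlier results of these data were known when they were chosen. All 10 were found by Ensembl identifier among the 43629 genes of the count table. All 10 passed the filter on low counts in every comparison. RNA was sequenced from bone marrow-derived dendritic cells (BMDCs) of 5 wildtype (WT) and 5 Cacnb3-/- cultures, named by the numbers of their labels (p974s843 and so on), with 3 libraries from each culture and 30 in all. The WT mice were C57BL/6J and the Cacnb3-/- mice, which lack the β3 subunit of voltage-gated calcium channels, were kept on C57BL/6N, so the deletion and the substrain cannot be told apart. Marrow of 6- to 12-week-old mice of both sexes was grown for 6 days with GM-CSF, the growth factor that yields dendritic cells and also macrophages and granulocytes. ATP was given at 500 µM for 30 min, with harvest at once or after a further 24 h, beside control cells, and the libraries of the 3 sets are named ctrl, 0p5h and 24h.

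The labels are not at one on the first 2 sets. In their treatment field, the ctrl libraries carry 30 min of ATP and the 0p5h libraries carry vehicle, while name and field match for 24h. The libraries were grouped by name, so a difference between ctrl and 0p5h carries that doubt about its direction, and either set may be the untreated one for 24h. The labels name no untreated set kept for the same added day, so ATP and the added day of culture cannot be told apart. The labels do not say that each culture number is a separate mouse, so the p-values measure the spread between these cultures.

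Glycolysis splits glucose into pyruvate and yields ATP without oxygen. Slc2a1 (GLUT1) carries glucose across the plasma membrane, and hexokinase 2 (Hk2) phosphorylates it and so holds it in the cell. Phosphofructokinase (Pfkp) makes the committed step, and Pfkfb3 makes fructose 2,6-bisphosphate, the strongest activator of phosphofructokinase. Aldolase (Aldoa), Gapdh, phosphoglycerate kinase (Pgk1), enolase (Eno1) and pyruvate kinase (Pkm) carry the chain on to pyruvate, which lactate dehydrogenase (Ldha) turns into lactate. Dendritic cells raise this pathway when they are activated, and the transcription factor HIF-1, which binds the core letters ACGTG, is a known regulator of most of these genes.

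Since HIF-1 is a known regulator of most of these genes, the 250 bases before their RefSeq transcription starts in GRCm38.p6 were searched for ACGTG on either strand. All 10 genes had a RefSeq window, 17 windows in all, and 9 windows of 7 genes held the letters, against 16.6% of 32851 windows of all genes. The 2 Aldoa windows among the 9 overlap and hold the same match. Eno1, Gapdh and Pfkp had no match. Pfkfb3 had 1 match in the first of its 2 windows and 2 matches, of 1 palindrome, in the second. 4 windows are shown, for the gene with the most matches (Ldha), for the gene with the largest blocked change from 0p5h to 24h (Hk2), for the gene that went against the others (Pfkfb3) and for a gene with no match (Pfkp). Each is written 5′ to 3′ in the sense of the gene, with ACGTG and its reverse complement CACGT in capitals; a CACGTG palindrome counts as 2 matches.
Ldha, chr7:46845554-46845803, plus strand: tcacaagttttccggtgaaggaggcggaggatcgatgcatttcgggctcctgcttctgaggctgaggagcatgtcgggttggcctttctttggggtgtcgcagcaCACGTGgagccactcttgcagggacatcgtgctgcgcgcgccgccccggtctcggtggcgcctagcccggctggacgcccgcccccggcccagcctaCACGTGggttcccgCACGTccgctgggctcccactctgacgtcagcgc
Hk2, chr6:82774455-82774704, minus strand: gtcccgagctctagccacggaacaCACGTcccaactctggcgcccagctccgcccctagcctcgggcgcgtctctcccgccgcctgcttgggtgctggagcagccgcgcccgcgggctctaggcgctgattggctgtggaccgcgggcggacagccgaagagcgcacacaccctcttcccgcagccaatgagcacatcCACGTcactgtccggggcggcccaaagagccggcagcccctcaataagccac
Pfkfb3, chr2:11502091-11502340, minus strand, the second of its 2 starts: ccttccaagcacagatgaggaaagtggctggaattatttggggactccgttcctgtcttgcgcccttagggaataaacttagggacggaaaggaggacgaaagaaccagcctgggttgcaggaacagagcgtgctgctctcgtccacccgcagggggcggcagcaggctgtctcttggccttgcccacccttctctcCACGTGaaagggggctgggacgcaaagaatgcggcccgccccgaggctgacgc
Pfkp, chr13:6648772-6649021, minus strand: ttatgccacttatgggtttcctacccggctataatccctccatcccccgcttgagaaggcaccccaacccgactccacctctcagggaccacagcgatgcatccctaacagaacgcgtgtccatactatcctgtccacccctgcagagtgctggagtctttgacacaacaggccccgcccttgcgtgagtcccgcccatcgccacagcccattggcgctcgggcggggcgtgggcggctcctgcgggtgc
The Ldha window held 5 matches in 3 runs, the Hk2 window 2 separate matches, the Pfkfb3 window a single palindrome, and the Pfkp window no match. The hypoxia-site variant GCGTG stood in 8 of the 17 windows, 3 times in that of Pfkp, and in 28.2% of all windows. A match of letters is a description of the sequence and not a measured binding site.

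Library totals ran from 8237393 to 32164225 counts (median 19556920). By group, the medians in ctrl, 0p5h and 24h were 25364047, 20360908 and 19915605 in WT. In Cacnb3-/- libraries they were 16202000, 18729574 and 11986891, so the Cacnb3-/- 24h group was the shallowest. The part of depth in the fold changes was not tested. All 7 markers of dendritic cells reached 10 counts in every library, and their summed level, in CPM (counts per 1000000, scaled as described with the methods), was 16026 to 29976 in WT libraries and 11305 to 27723 in Cacnb3-/- libraries. The 7 macrophage or monocyte markers were also all present, with a sum of 393 to 3599 CPM, and 6 of 8 granulocyte markers, with a sum of 108 to 574 CPM. The summed lymphocyte and erythroid markers stayed at or below 3.64 and 1.02 CPM, with Hbb-bs at 0 in 5 of the 6 groups, and those of mast cells or basophils lay between 59.7 and 184 CPM. In bulk RNA, fewer cells of a type and less RNA per cell cannot be told apart. Cacnb3 itself had reads in every library, with a median of 1336 CPM in WT (1034.9 to 2143) and of 997 CPM in Cacnb3-/- libraries (573 to 1331), and counts per gene do not show whether the deleted exons were read.

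Several of the glycolytic genes have many near-identical pseudogenes, and reads that fit more than one place were not counted. To see what this leaves, each stretch of 50 bases of a transcript was looked up in the GRCm39 genome. No stretch of Slc2a1, Hk2 or Pfkp had an exact copy elsewhere, and 1.07% of Pfkfb3 did. The share was 15.2% for Aldoa, 33.8% for Ldha, 40.2% for Pkm and 63.6% for Eno1. It reached 85.6% for Gapdh and 92.9% for Pgk1, so the counts of these 2 genes rest on a small part of their transcripts and their levels are uncertain. Gapdh had between 169 and 11361 counts in a library and Pgk1 between 1049 and 3635.

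**Figure D1:**
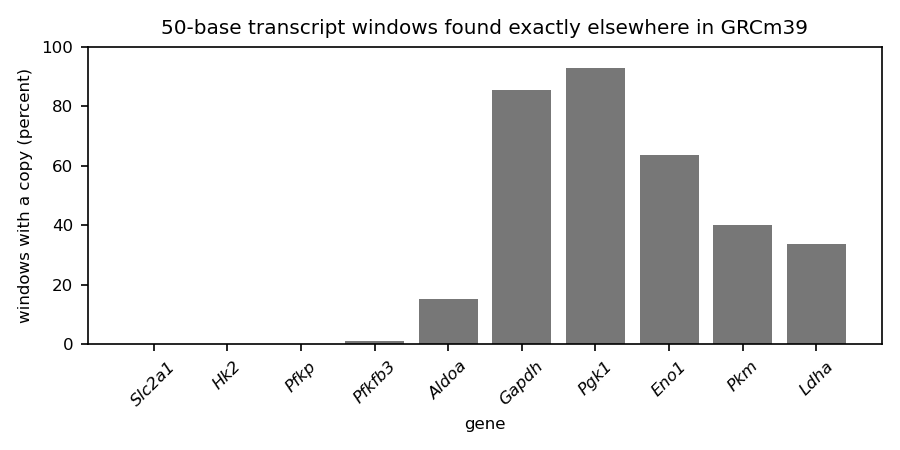
Share of 50-base stretches of each gene's transcript that have an exact copy elsewhere in the GRCm39 genome (bars, percent of stretches). Pgk1 (92.9%) and Gapdh (85.6%) are mostly copied, whereas Slc2a1, Hk2 and Pfkp have no copied stretch.

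Read per kilobase of exon, Aldoa was the most abundant of the 10 in the ctrl libraries, with a median of 1142 CPM per kilobase over both genotypes. Pkm followed with 551 and Ldha with 538 CPM per kilobase, and Pkm was the higher of the pair in 8 of 10 libraries. Pfkfb3 came next with 151 CPM per kilobase, below the lowest Ldha library, which had 402. The order went on with Eno1 (75.1), Slc2a1 (53.9), Pgk1 (53.6), Gapdh (37.6), Pfkp (26.4) and Hk2 (18.6 CPM per kilobase). Eno1 exceeded Slc2a1, and Pfkp exceeded Hk2, in 10 of 10 libraries. The neighbours between were not apart beyond their spread, since Slc2a1 exceeded Pgk1 in 5 of 10 libraries, Pgk1 exceeded Gapdh in 6, and Gapdh exceeded Pfkp in 7. At 24h Ldha (429) stood above Pkm (391), Pgk1 (47.1) above Eno1 (46.3) and Slc2a1 (29.1), and Pfkp (19.1) above Gapdh (14.7 CPM per kilobase) by the medians. Library by library, Ldha exceeded Pkm in 3 of 10, Pgk1 exceeded Eno1 in 4 and Pfkp exceeded Gapdh in 6, so these pairs were not apart beyond their spread. Those levels for Gapdh and Pgk1, and to a lesser degree Eno1, Pkm, Ldha and Aldoa, miss the reads lost to copies. The divisor was the length of all annotated exons of a gene, which can differ from that of its transcript. It was 2982 against 1588 bases for Ldha, 9395 against 4308 for Pfkp and 4133 against 1420 for Gapdh. For Pkm it was 2599 against 2448 bases, and for Slc2a1 and Hk2 it was the shorter of the pair. The order of the genes thus depends on that length, and an order per transcript base was not computed.

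The 10 genes varied widely over the 30 libraries, both genotypes and all sets included. From the lowest to the highest library, CPM ran 21.8-fold for Gapdh, 10.7-fold for Slc2a1 and 10.7-fold for Hk2, but only 2.65-fold for Pfkfb3. Over the 30 libraries, which are 3 from each of 10 cultures and share culture and depth, 9 of the 10 genes moved together. The Pearson correlation of a gene's log2 CPM with the mean of the others was 0.976 for Aldoa, 0.947 for Pkm, 0.919 for Pfkp, 0.906 for Slc2a1 and 0.883 for Hk2. It was 0.878 for Eno1, 0.865 for Ldha, 0.644 for Gapdh and 0.591 for Pgk1, the most copied pair. Pfkfb3 ran the other way, with a correlation of -0.44. Among 8345 genes at a mean of 10 CPM or more, those with the profile most like the mean of the 10 were Tpi1 (0.980), Pgm1 (0.979), Gys1 (0.974), Grhpr (0.967) and Eif4ebp1 (0.954).

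**Figure D2:**
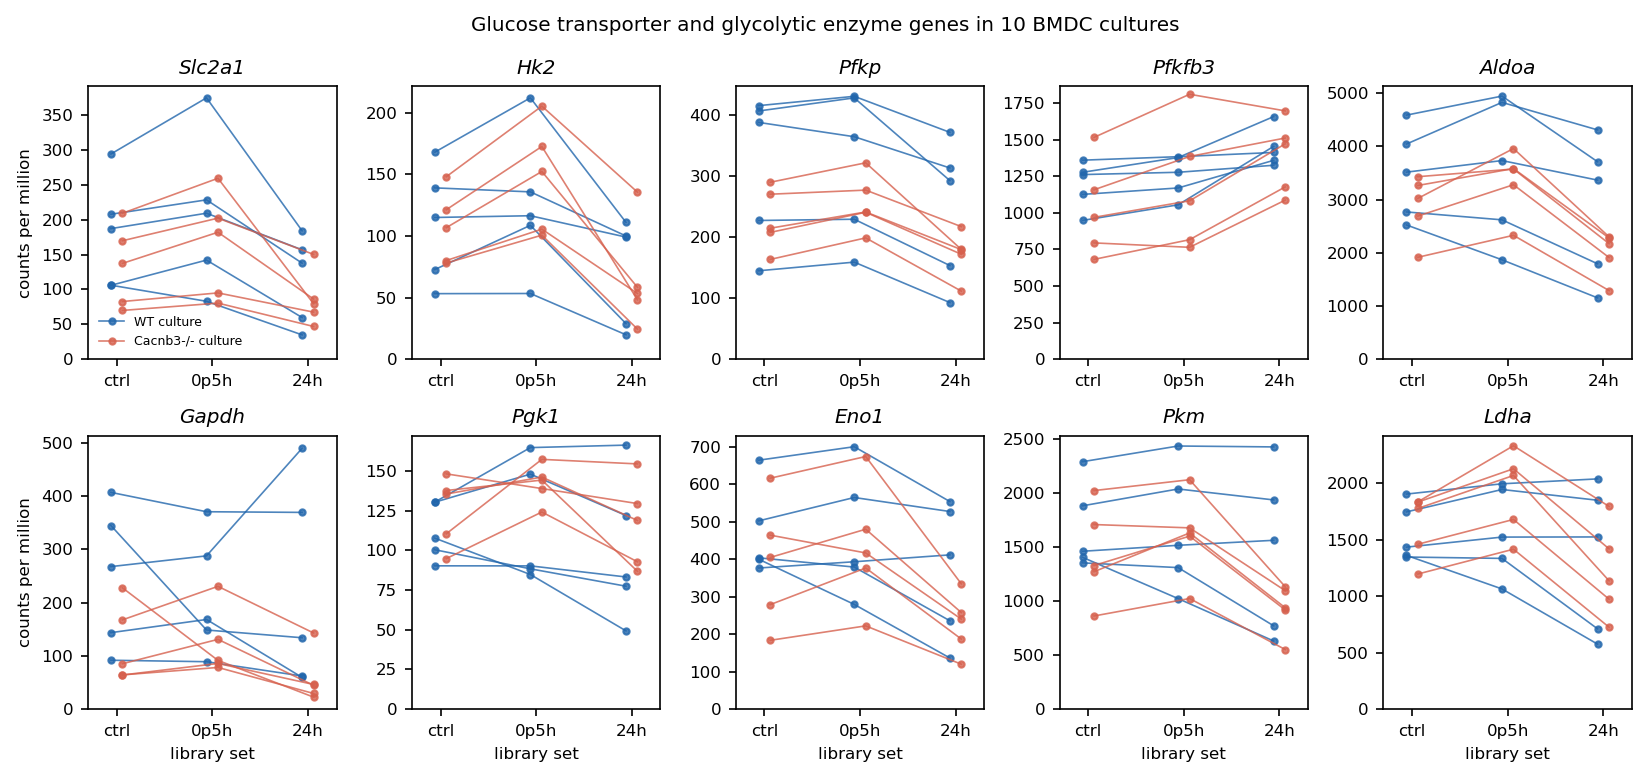
Level of each of the 10 genes (CPM, linear axis) in the ctrl, 0p5h and 24h libraries of each culture. Each line joins the 3 libraries of 1 culture, with WT and Cacnb3-/- in different colours. Most lines drop from 0p5h to 24h and most of those of Pfkfb3 rise, while the 2 genotypes overlap in every panel.

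The first comparison asked whether loss of Cacnb3 changed the level of these genes within a set, with 5 against 5 libraries. By edgeR's quasi-likelihood test, 0 of the 10 genes differed in any set at an adjusted p below 0.05. The share of all genes called, at that p and at least 2-fold, was also 0%. A share of 0% at that threshold does not show that the genotypes were alike. At an unadjusted p below 0.05 the counts were 1 in ctrl, 0 in 0p5h and 1 in 24h, and DESeq2 called 0, 0 and 1, each time Gapdh where a gene passed. The median log2 difference of the 10, Cacnb3-/- minus WT, was -0.23 in ctrl, -0.08 in 0p5h and -0.45 in 24h, beside 0.03, 0.02 and 0.01 for all genes tested.

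Gapdh, which oxidises glyceraldehyde 3-phosphate, had the largest difference in each set. In the 24h libraries it stood at 134, 59.5, 369, 490 and 62.1 CPM in WT and at 22.5, 46.2, 29.3, 44.7 and 143 CPM in Cacnb3-/- cultures. All Cacnb3-/- libraries but 1 lay below every WT library, and culture p974s865 lay above 3 of them. The log2 difference was -1.95 (SE 0.66) with an adjusted p of 0.063 by edgeR. It was -1.02 (SE 0.45, adjusted p = 0.289) in ctrl and -0.77 (adjusted p = 0.338) in 0p5h. At 24h the unadjusted edgeR p of Gapdh was 0.0119. That became 0.063 over 12706 genes tested only because many other genes had small p too, so Gapdh did not stand alone near the threshold.

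Whether the Gapdh difference at 24h passed depended on single cultures. Without Cacnb3-/- culture p974s865 it was -2.61 with an edgeR adjusted p of 0.0118, and without WT culture p974s864 it was -2.18 with an adjusted p of 0.0395. With the mitochondrial share of counts as a covariate it was 0.17 (SE 0.41). Under the same covariate the difference turned from negative to positive for 7 genes in ctrl, for 6 in 0p5h and for 8 in 24h, with 0 of the 10 genes called in each. With the sequencing lane as a covariate, Gapdh at 24h stood at -1.82 (adjusted p = 0.090); a lane held 1 to 3 libraries of a genotype in a set, too few for a test within lanes.

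Between ctrl and 0p5h the question was the early response, within a genotype. Without regard to culture number, edgeR passed 0 of the 10 genes in either genotype, adjusted or not, and DESeq2 called 0 in either. The share of all genes called, which also needs 2-fold, was 0.176% in WT and 0.290% in Cacnb3-/- cultures. At the adjusted p alone 38 of 13085 and 49 of 12750 genes passed. The median log2 change of the 10 from ctrl to 0p5h was 0.05 in WT and 0.18 in Cacnb3-/- cultures, beside 0.01 and -0.01 for all genes.

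The libraries of a culture deviated together, so the same changes were fitted with the culture number as a block. In WT, 0 of the 10 genes then passed, with 1 at an unadjusted p below 0.05, while 3.29% of all genes were higher in 0p5h. Hk2 alone passed in Cacnb3-/- cultures, beside 1.62% of all genes that were higher. Its level was 148, 107, 78.1, 80.1 and 121 CPM in ctrl and 205, 152, 101, 106 and 173 CPM in 0p5h, in the order of cultures p974s843, p974s851, p974s852, p974s853 and p974s865. Hk2 was higher in 5 of 5 cultures, by 0.44 on the log2 scale (SE 0.06, edgeR adjusted p = 0.00387). The count of passing genes rose to 9 when culture p974s843 was left out and to 6 with the mitochondrial share as a covariate. The block with DESeq2 gave 3. The share of all genes passing in those fits is not given here, so these counts cannot be set against it. Slc2a1 stood next to Hk2, at 0.26 (SE 0.06, adjusted p = 0.064).

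The change from 0p5h to 24h was compared next, within each genotype. Without the block, edgeR passed 0 of the 10 genes in either genotype. At an unadjusted p below 0.05 there were 0 in WT and 8 in Cacnb3-/- cultures, and DESeq2 called 0 and 1. The share of all genes by these 2 measures is not given here, so these counts cannot be set against it. The share of all genes called by edgeR, which needs the adjusted p and 2-fold, was 0.639% and 0.660%. At the adjusted p alone 153 of 12830 genes passed in WT and 112 of 12730 in Cacnb3-/- cultures. The median log2 change of the 10 was -0.27 in WT and -0.76 in Cacnb3-/- cultures, with 0.01 and 0.00 over all genes.

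With the culture number as a block, 4 of the 10 genes fell in WT and 8 of the 10 in Cacnb3-/- cultures. Of all genes tested, 6.78% and 14.4% were lower by the same measure. The genes that fell in both were Slc2a1, Hk2, Pfkp and Aldoa, at the entry and in the upper part of the pathway. Gapdh, Eno1, Pkm and Ldha, in the lower part, fell in Cacnb3-/- cultures and missed the threshold in WT, and Pfkfb3 and Pgk1 missed it in both.

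Slc2a1 stood at 228, 142, 209, 375 and 83.1 CPM in 0p5h and at 138, 59.8, 157, 184 and 34.9 CPM in 24h, in WT cultures p974s846, p974s850, p974s855, p974s856 and p974s864. The Cacnb3-/- cultures stood at 202, 182, 80.5, 95.1 and 259 CPM in 0p5h and at 150, 86.3, 47.0, 67.6 and 79.6 CPM in 24h. It was lower at 24h in all 10 cultures, although the 2 sets overlapped in each genotype. The log2 change within cultures was -0.93 in WT (SE 0.12, edgeR adjusted p = 0.00217) and -0.89 in Cacnb3-/- cultures (SE 0.16, adjusted p = 0.00337).

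Hk2 fell in both genotypes with the block. In WT it went from 136, 109, 117, 212 and 53.4 CPM to 100, 28.96, 99.2, 111 and 19.9 CPM, and the Cacnb3-/- cultures went from 205, 152, 101, 106 and 173 CPM to 136, 58.4, 24.5, 53.4 and 48.3 CPM. Each of the 10 cultures was lower at 24h, by as little as WT culture p974s855 and as much as Cacnb3-/- culture p974s852. The log2 change was -0.97 in WT (SE 0.22, edgeR adjusted p = 0.0211) and -1.35 in Cacnb3-/- cultures (SE 0.18, adjusted p = 0.00064).

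Pfkp fell by 0.46 in WT as a log2 change (SE 0.09, edgeR adjusted p = 0.0152) and by 0.57 in Cacnb3-/- cultures (SE 0.10, adjusted p = 0.00276), in 5 of 5 cultures of each. Aldoa, the most abundant of the 10, was at 4829, 2621, 3735, 4948 and 1870 CPM in 0p5h and at 4312, 1794, 3368, 3713 and 1154 CPM in 24h in WT. Cacnb3-/- cultures were at 3585, 3281, 2330, 3961 and 3577 CPM in 0p5h and at 2281, 1912, 1291, 2301 and 2174 CPM in 24h. The 2 Cacnb3-/- sets did not overlap, since the highest 24h library lay just under the lowest 0p5h library, whereas the WT sets overlapped widely. Its log2 change was -0.39 in WT (SE 0.10, edgeR adjusted p = 0.0402) and -0.74 in Cacnb3-/- cultures (SE 0.09, adjusted p = 0.000261).

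In the lower part of the pathway the Cacnb3-/- cultures were all lower at 24h than at 0p5h, in 5 of 5 cultures for each gene. Gapdh went from 91.4, 85.7, 78.2, 131 and 230 CPM to 22.5, 46.2, 29.3, 44.7 and 143 CPM, a log2 change of -1.28 (SE 0.16, edgeR adjusted p = 0.000393). Eno1 went from 417, 480, 222, 376 and 674 CPM to 240, 258, 120, 187 and 334 CPM, a log2 change of -0.91 (SE 0.08, adjusted p = 5.16e-05). Eno1 dropped by a similar fraction in each of the 5 cultures, and it had the smallest p of the 10. Pkm fell by 0.79 (adjusted p = 0.000205) and Ldha by 0.70 (adjusted p = 0.00118) on the log2 scale. Mean Pkm was 1611 ± 391 CPM in 0p5h and 927 ± 230 CPM in 24h (SD, n = 5), and mean Ldha was 1927 ± 370 and 1211 ± 413 CPM.

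In WT the same 4 genes had log2 changes of -0.26 (Gapdh), -0.41 (Eno1), -0.30 (Pkm) and -0.36 (Ldha), with edgeR adjusted p between 0.101 and 0.540. Cultures p974s850 and p974s864 carried most of this. Pkm went from 1310 to 770 CPM in culture p974s850 and from 1023 to 630 CPM in culture p974s864, but from 2037 to 1936, from 1516 to 1562 and from 2435 to 2427 CPM in cultures p974s846, p974s855 and p974s856. Gapdh went from 288 to 490 CPM in culture p974s856 and went from 371 to 369 CPM in culture p974s855. The WT cultures thus did not move alike for Pkm and Gapdh.

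Pfkfb3 was the exception in direction. It was higher at 24h than at 0p5h in 5 of 5 WT cultures, by 0.21 on the log2 scale (SE 0.09, edgeR adjusted p = 0.156), and in 4 of 5 Cacnb3-/- cultures, by 0.31 (SE 0.11, adjusted p = 0.0525). Its mean was 1252 ± 141 and 1441 ± 130 CPM in WT and 1171 ± 434 and 1388 ± 251 CPM in Cacnb3-/- cultures (SD, n = 5). Pgk1 had log2 changes of -0.26 (adjusted p = 0.153) in WT and -0.30 (adjusted p = 0.0589) in Cacnb3-/- cultures.

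**Figure D3:**
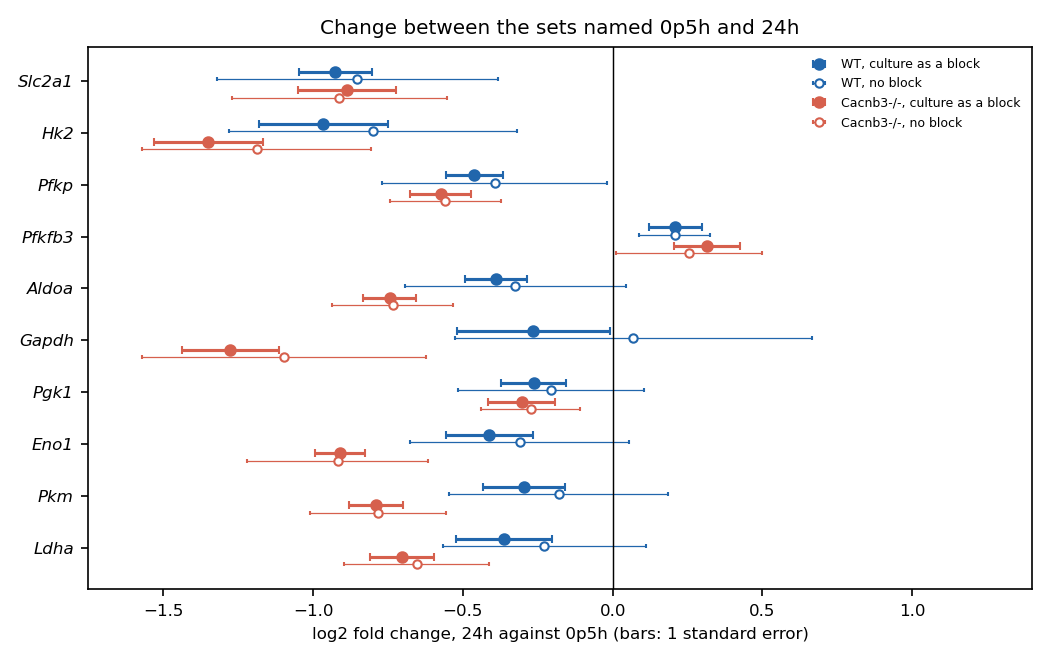
Log2 change from 0p5h to 24h of each of the 10 genes in WT and Cacnb3-/- cultures, from the edgeR fits with the culture number as a block (filled points) and without it (open points), with bars of 1 standard error. All filled points but those of Pfkfb3 lie below 0, and those of Hk2 and Gapdh in Cacnb3-/- cultures lie below -1; the bars without the block are longer.

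At 2-fold or more, Hk2 and Gapdh passed in Cacnb3-/- cultures and no gene in WT. Without culture p974s864, 1 of the 4 WT genes passed, and in Cacnb3-/- cultures 8 or 9 passed whichever culture was left out. The mitochondrial share was higher at 24h than at 0p5h in 5 of 5 Cacnb3-/- and 4 of 5 WT cultures, and with that share and the block in the fit 0 of the 10 genes passed in Cacnb3-/- cultures. The log2 changes there were -1.73 for Hk2 (SE 0.37, edgeR adjusted p = 0.060), -1.36 for Slc2a1 (SE 0.32, adjusted p = 0.087) and -0.87 for Gapdh (SE 0.32, adjusted p = 0.387). Those of Hk2 and Slc2a1 were further from 0 than without the share, with about 2 times the standard error. In WT all 4 genes passed with the share in the fit.

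The summed dendritic cell markers moved as well. Their median went from 20627 CPM in 0p5h to 12333 CPM in 24h in Cacnb3-/- and from 25374 to 24329 CPM in WT cultures. Cd74 made most of this sum, and its mean went from 13101 to 8456 CPM in Cacnb3-/- cultures. Mean H2-Ab1 and Itgax were also lower at 24h in both genotypes. Mean Flt3 went the other way, from 68.2 to 102 CPM in Cacnb3-/- and from 65.7 to 111 CPM in WT cultures. The part of these markers in the result was not tested. The summed macrophage or monocyte markers ran from 535 to 3599 CPM in 0p5h and from 393 to 1109 CPM in 24h in Cacnb3-/- cultures. In WT they ran from 1239 to 2898 and from 493 to 1274 CPM. The median of the sum went from 1865 to 829 CPM in Cacnb3-/- and from 1635 to 723 CPM in WT cultures. In Cacnb3-/- cultures mean Csf1r went from 561 to 333 CPM, Mrc1 from 54.7 to 83.4 CPM and Adgre1 from 56.1 to 58.5 CPM. The other markers of the list, Mertk, Cd14, Ly6c2 and Fcgr1, are not given singly. The part of these markers was not tested either.

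The comparison of 24h with ctrl uses the same 24h libraries as the one above. Without the block edgeR passed 0 of the 10 genes in either genotype, with 0 in WT and 3 in Cacnb3-/- cultures at an unadjusted p below 0.05, and DESeq2 called 0 in either. The share of all genes called, which also needs 2-fold, was 0.0152% in WT and 0% in Cacnb3-/- cultures. At the adjusted p alone 2 of 13176 and 0 of 12452 genes passed, and the share of all genes at the unadjusted p is not given here. The median log2 change of the 10 was -0.24 in WT and -0.58 in Cacnb3-/- cultures, beside 0.00 and -0.01 for all genes. With the block, Slc2a1 fell in WT by 0.77 (SE 0.16, edgeR adjusted p = 0.0252), Hk2 by 0.78 (SE 0.17, adjusted p = 0.0291) and Pfkp by 0.42 (SE 0.10, adjusted p = 0.0326) on the log2 scale, against 3.64% of all genes that were lower. No gene passed without culture p974s846 or without culture p974s850, and 1 passed without culture p974s864, as with the mitochondrial share in the fit.

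Whether the 2 genotypes changed differently was tested by an interaction term. Without the block, edgeR passed 0 of the 10 genes from ctrl to 0p5h, from ctrl to 24h and from 0p5h to 24h, with 0 at an unadjusted p below 0.05 each time, and DESeq2 called 0; the share of all genes called was 0% each time. With the block, 0 of the 10 passed the adjusted p from ctrl to 0p5h, beside 0% of all genes. From 0p5h to 24h 0 of the 10 passed it, beside 0.00745% of all genes. Those shares are for the adjusted p, and none is given here for the unadjusted p. At an unadjusted p below 0.05 there were 2 of the 10 from ctrl to 0p5h and 4 from 0p5h to 24h. The 4 genes of the latter were Gapdh, whose log2 change in Cacnb3-/- cultures less that in WT was -1.02 (SE 0.34, adjusted p = 0.109), Eno1 with -0.50 (adjusted p = 0.110), Pkm with -0.50 (adjusted p = 0.109) and Aldoa with -0.36 (adjusted p = 0.115). DESeq2 with the block passed 2 of the 10, and 1 passed by edgeR without culture p974s865. A larger drop in Cacnb3-/- cultures was therefore not shown by edgeR, and the counts of 4 and 8 genes that fell are not a test of it.

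The mitochondrial share of counts, that is, the reads of the 37 genes of the mitochondrial genome as a percent of all reads counted in a library, was followed beside the 10 genes. At ctrl it was 2.37% ± 1.53 in WT and 6.42% ± 3.20 in Cacnb3-/- libraries, at 0p5h 2.28% ± 1.27 and 5.86% ± 3.06, and at 24h 2.98% ± 1.94 and 9.96% ± 5.43 (SD, n = 5). The genotypes overlapped in every set. At 24h the WT libraries had 2.55%, 4.21%, 1.82%, 0.706% and 5.61% and the Cacnb3-/- libraries 16.5%, 6.00%, 10.5%, 13.6% and 3.21%. The exact two-sided permutation test gave p = 0.0397, 0.0317 and 0.0317 in ctrl, 0p5h and 24h (Benjamini-Hochberg adjusted 0.0397 each over 3 sets of the same cultures). The p was above 0.05, at most 0.0794, in 7, 6 and 6 of the 10 tests that left out 1 culture.

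Across the 10 libraries of a set, with genotype in the model, expression was then related to the log2 of that share. In ctrl, 4 of the 10 genes were lower where the share was higher, beside 5.05% of all genes. Per doubling of the share, Slc2a1 changed by -0.71 (SE 0.09, edgeR adjusted p = 0.00598), Hk2 by -0.58 (SE 0.11, adjusted p = 0.0153), Pfkp by -0.52 (SE 0.11, adjusted p = 0.0196) and Gapdh by -0.81 (SE 0.21, adjusted p = 0.0369) on the log2 scale. These are the transporter and the first enzymes of the pathway, and Gapdh.

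In 0p5h the slope passed for Gapdh alone, at -0.75 (SE 0.13, edgeR adjusted p = 0.0405), beside 0.688% of all genes. In 24h it passed for Gapdh, at -1.05 (SE 0.15, adjusted p = 0.0019), and for Eno1, at -0.44 (SE 0.15, adjusted p = 0.0465), beside 11.4% of all genes. The median slope of the 10 was -0.39, -0.32 and -0.25 in ctrl, 0p5h and 24h, while that of all genes was 0.00, 0.00 and 0.01. Gapdh was the gene that passed in all 3 sets, which hold the same 10 cultures. Pfkfb3 had the one slope above 0, of 0.17, 0.07 and 0.08, and did not pass.

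The WT culture with the lowest share at each set, p974s856, had the highest Slc2a1 (294, 375 and 184 CPM), and WT culture p974s864, with the highest WT share, had the lowest or second lowest WT level (106, 83.1 and 34.9 CPM). Among Cacnb3-/- cultures, p974s865 had the lowest share (2.61%, 2.16% and 3.21%) and the highest Slc2a1 in ctrl and 0p5h (209 and 259 CPM), but not in 24h (79.6 CPM, against 150 CPM in culture p974s843). In 24h, culture p974s843 held both the highest share, 16.5%, and the highest Slc2a1, Hk2 and Ldha of its group.

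Whether a slope passed changed with the cultures left out and with library size. Leaving out each of the 10 cultures in turn, the Gapdh slope passed in 3 of 10 fits in ctrl (slopes of -0.93 to -0.70), in 4 of 10 in 0p5h (-0.89 to -0.66) and in 10 of 10 in 24h (-1.15 to -0.98). The Slc2a1 slope in ctrl passed in 10 of 10 (-0.77 to -0.67). In ctrl 1 of the 10 genes passed without WT culture p974s856 or without WT culture p974s864. With library size as a further term 0 passed in ctrl and 0p5h and Gapdh alone in 24h, at -1.02 (SE 0.16, adjusted p = 0.00457), while the slope in ctrl was -0.68 for Slc2a1 and -0.40 for Gapdh. The share and the library size were not varied apart in this design, and the part of depth in these slopes was not tested.

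**Figure D4:**
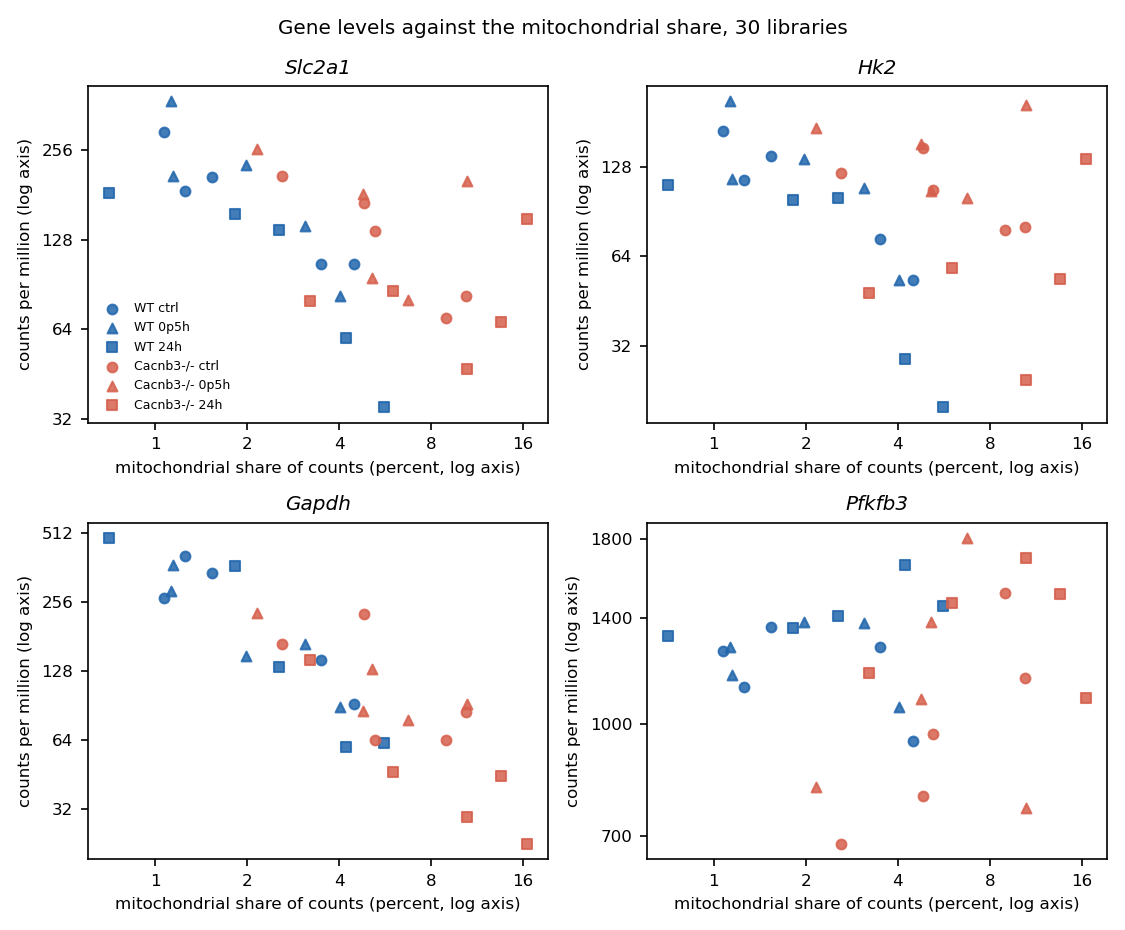
Level of 4 of the genes (CPM, log axis) against the mitochondrial share of counts (percent, log axis) in the 30 libraries, with colour for genotype and shape for set. Slc2a1, Hk2 and Gapdh run downward from left to right, Gapdh most clearly at 24h, and Pfkfb3 does not.

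Related lists of genes were compared from 0p5h to 24h in the same way, and their counts with the block stand beside those of all genes, of which 6.78% fell and 4.52% rose in WT, and 14.4% fell and 14.2% rose in Cacnb3-/- cultures. Without the block, edgeR passed 0 of 59 tested genes in WT and 0 of 60 in Cacnb3-/- cultures. The lists counted were the rest of glycolysis, lactate and pyruvate handling, the pentose phosphate pathway and the citrate cycle. At an unadjusted p below 0.05 there were 4 and 17, and the share of all genes at that p is not given here. Of 24 further enzymes and transporters, 22 were tested, and from 0p5h to 24h with the block 2 rose and 4 fell in WT and 10 fell in Cacnb3-/- cultures. In Cacnb3-/- cultures those with the largest falls were the liver-type phosphofructokinase Pfkl (-0.92), glucose phosphate isomerase Gpi1 (-0.87), phosphoglycerate mutase Pgam1 (-0.84) and hexokinase 1, Hk1 (-0.76, all log2, edgeR adjusted p up to 0.000666). Triose phosphate isomerase, Tpi1, fell by 0.72 and the transporter Slc2a3 by 0.68. In WT, Eno2 rose by 0.69, while Aldoc fell by 0.59, Pfkm by 0.51 and Gpi1 by 0.38 on the log2 scale. The list's median was 0.03 in WT and -0.33 in Cacnb3-/- cultures, with 0.00 for all genes in both.

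Slc16a3 (MCT4), which carries lactate out of the cell, fell by 0.65 in WT (edgeR adjusted p = 0.0473) and by 1.24 on the log2 scale in Cacnb3-/- cultures (SE 0.09, adjusted p = 8.7e-06). Its chaperone Bsg fell by 0.36 and 0.56, and Slc16a1 by 0.46 in WT. In Cacnb3-/- cultures 2 of 15 genes of this list rose and 5 fell, among them the pyruvate carrier subunit Mpc1 (-0.77) and the pyruvate dehydrogenase phosphatase Pdp1, which rose by 0.67. In WT 0 of 14 rose and 3 fell. The 2 that rose are near the 14.2% of all genes and say nothing about the list.

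Other branches of glucose use had medians nearer to 0, between -0.24 and 0.04 on the log2 scale. Of 7 pentose phosphate genes, 0 passed in WT, while in Cacnb3-/- cultures 1 rose and 4 fell, with Pgls (-0.60) and Tkt (-0.55) the lowest. Of 16 citrate cycle genes, 0 passed in WT, and in Cacnb3-/- cultures 2 rose, Idh3a (0.42) and Sucla2 (0.39), and 4 fell, with Idh3g and Mdh2 at -0.35 the lowest. The 0 counts in WT are by edgeR with the block. The 1 of 7 and 2 of 16 that rose in Cacnb3-/- cultures are near the 14.2% of all genes.

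**Figure D5:**
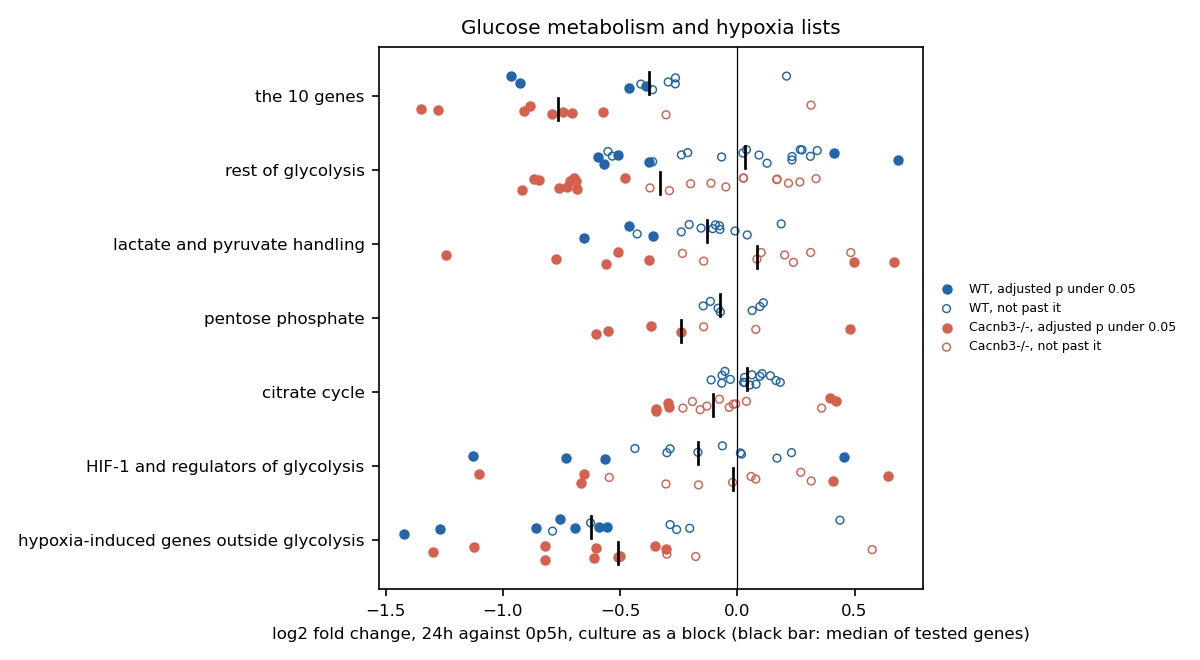
Log2 change from 0p5h to 24h, by the edgeR fit with the culture number as a block, of each gene of the 10 and of the related lists in WT and Cacnb3-/- cultures (points, filled at an adjusted p below 0.05), with a black bar at the list's median. The 10 genes and the hypoxia-induced genes lie mostly below 0, with medians of -0.77 and -0.51 in Cacnb3-/- cultures, and the medians of the other lists plotted run from -0.33 to 0.08 there.

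HIF-1 is the factor by which low oxygen raises glycolysis, and genes it induces outside the pathway were set beside the 10. Of 13 such genes, 7 fell from 0p5h to 24h in WT and 10 in Cacnb3-/- cultures with the block, and 0 rose in either, beside 6.78% and 14.4% of all genes that fell. Without the block edgeR passed 0 of the 13 in WT and 1 in Cacnb3-/- cultures, with 3 in each at an unadjusted p below 0.05. Vegfa, the angiogenic growth factor, had means of 702 ± 200 and 275 ± 120 CPM in WT and of 722 ± 141 and 297 ± 91.2 CPM in Cacnb3-/- libraries (SD, n = 5). Its log2 change was -1.42 and -1.30, and in Cacnb3-/- cultures it is the gene that passed without the block (-1.27, edgeR adjusted p = 0.021). The oxidoreductase Ero1a fell by 1.27 and 0.82, and the prolyl hydroxylase subunit P4ha2 by 0.86 and 0.82 on the log2 scale. The list's median was -0.63 in WT and -0.51 in Cacnb3-/- cultures.

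Of 13 tested genes of HIF-1 and its regulators, 1 rose and 3 fell in WT with the block. In Cacnb3-/- cultures 2 rose and 3 fell. Beside them, 4.52% of all genes rose and 6.78% fell in WT, and 14.2% and 14.4% in Cacnb3-/- cultures. The 2 that rose are near that share, and the list's median was -0.17 in WT and -0.02 in Cacnb3-/- cultures. Egln3, an oxygen-sensing prolyl hydroxylase that HIF-1 itself induces, fell by 1.13 in WT and 1.10 in Cacnb3-/- cultures on the log2 scale. Vhl, which marks HIF-1α for breakdown, rose by 0.45 and 0.64, and passed in WT without the block too (0.46, edgeR adjusted p = 0.039). Hif1a itself did not pass, with -0.29 (adjusted p = 0.170) in WT and 0.32 (adjusted p = 0.179) in Cacnb3-/- cultures. Myc, a further activator of the pathway, fell in WT by 0.73, and Txnip, which lowers glucose uptake, fell by 0.56 and 0.66.

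From ctrl to 0p5h, with the block, Myc rose by 0.80 in WT, Vegfa by 0.57, Ankrd37 by 0.38, Dlat by 0.20 and Mxi1 by 0.15 (log2), and Txnip fell by 0.24 and Vhl by 0.22. For Cacnb3-/- cultures, Ankrd37 rose by 0.79, Myc by 0.52 and Ndrg1 by 0.33. Of the 13 hypoxia-induced genes, 3 thus rose in WT and 2 in Cacnb3-/- cultures. Of the 13 of HIF-1 and its regulators, 1 rose and 2 fell in WT, and 1 rose in Cacnb3-/- cultures. Of all genes, 3.29% and 1.62% were higher, and 349 of 13085 were lower in WT. Without the block edgeR passed 0 genes of these lists from ctrl to 0p5h in either genotype. Between genotypes, 0 genes of any of these lists passed in any set by edgeR. At an unadjusted p below 0.05 the 24h counts were 7 of 22 for the rest of glycolysis and 4 of 7 pentose phosphate genes. They were 9 of 14 for lactate and pyruvate handling, 10 of 16 for the citrate cycle and 5 of 13 for HIF-1 and regulators. For hypoxia-induced genes it was 0 of 13. In ctrl and 0p5h these lists had from 0 to 3 such genes each. The share of all genes at that p is not given here. Of the mitochondrially encoded genes, 2 of 17 tested rose from 0p5h to 24h in WT and 17 of 23 in Cacnb3-/- cultures with the block, beside 4.52% and 14.2% of all genes. Their median log2 change was 0.15 and 0.78. Without the block edgeR passed 0 in either genotype, with 0 and 1 at an unadjusted p below 0.05. Between genotypes, 21 of 22, 20 of 21 and 22 of 22 tested had an unadjusted p below 0.05 in ctrl, 0p5h and 24h. Their median log2 difference, Cacnb3-/- minus WT, was 1.79, 1.60 and 2.27, and 0 passed the adjusted p.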

How the data were processed

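The authors deposited raw counts of reads per gene, made per the file headers from read 1 alignments by featureCounts 1.5.1, with exons from Ensembl release 79 for GRCm38 and the defaults, which ignore strand and skip reads with several alignments. The submitters' processing notes name STAR 2.4, mm10 and DESeq2, whereas the study's methods name GRCm39 and a stranded kit. Reads of a gene and of its antisense partner cannot be told apart. Symbols came from GENCODE M39 for 38984 identifiers (89.4%).

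The members and the related gene lists were chosen with earlier results of these data known. Outside the 10, a gene of a list was named where it passed (the 4 with the largest change where more did) or where it is the paralog or neighbouring step of one of the 10. Counts were tested with edgeR 4.0.16 in R 4.3.3 (TMM scaling, the filterByExpr filter on low counts, quasi-likelihood test, Benjamini-Hochberg adjustment over all genes tested), and calls needed an adjusted p below 0.05 and at least 2-fold. Genes counted with the culture block, and slopes, needed the adjusted p alone. Counts at an unadjusted p, by DESeq2 or under other alternatives stand without the share of all genes in the same fit. CPM are counts per 1000000 after TMM scaling over the 30 libraries. A standard error is the log2 change divided by the square root of its F statistic, which is approximate. DESeq2 1.42.0, other scalings, filters and covariates, and leaving out each culture were alternatives. The main edgeR and DESeq2 fits, the edgeR fit with the block and the slope fits were tested on simulated counts.

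Libraries with the same culture number deviated together from their group means over 13755 genes, with correlations of 0.600 to 0.846 (WT) and 0.317 to 0.843 (Cacnb3-/-) between ctrl and 0p5h, 0.419 to 0.819 and 0.430 to 0.672 between 0p5h and 24h, and 0.437 to 0.759 in WT between ctrl and 24h. Between ctrl and 24h in Cacnb3-/- cultures, culture p974s843 reached 0.0746 only, so the number was not taken to pair those libraries.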

Additional observations from a re-analysis of the deposited data

Results flagged for a closer look

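In the Cacnb3-/- libraries of the 24h set, the level of Gapdh in culture p974s865 was 142.9 CPM, far from the other 4 cultures, which lay between 22.5 and 46.2 CPM. This library also had the lowest mitochondrial share of its group, 3.21%. Chance sets about 1 in 20 groups apart in this way, and 66 groups of 5 libraries were looked at, of which 1 stood out.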

How the results depend on the processing

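Between genotypes at 24h, Gapdh alone was called by DESeq2 (-1.96, adjusted p = 0.036), with no filter on low counts (-1.95, 0.041) and with all 30 libraries in one fit (-1.96, 0.016), so the count of 0 became 1; leaving out 1 culture gave 0 to 1 (1 without WT p974s864 or Cacnb3-/- p974s865). From 0p5h to 24h in Cacnb3-/- cultures the count of 0 became 1 by DESeq2 and 2 with the replicate block, and 0 to 1 with 1 culture left out (1 without p974s865).

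The counts past the adjusted p with the replicate block, and all alternatives to them, were chosen after seeing the data. The share of all genes passing in each alternative fit is not given here. Without the block they all became 0. From ctrl to 0p5h they were 0 in WT (0 to 1 with a culture left out, 1 without p974s864) and 1 in Cacnb3-/- cultures (3 by DESeq2, 6 with the mitochondrial share, 0 at 2-fold, 1 to 9 with a culture left out). From ctrl to 24h they were 3 in WT (1 with the share, 0 at 2-fold, 0 to 3 with a culture left out). In Cacnb3-/- cultures, where the numbers were not taken to pair, the replicate block passed 8 (4 with the GC trend removed, 0 at 2-fold, 1 to 9 with a culture left out, 1 without p974s851 or p974s853 and 3 without p974s852 or p974s865): Slc2a1 -0.62, Hk2 -0.91, Pfkp -0.42, Aldoa -0.53, Eno1 -0.74, Pkm -0.62, Ldha -0.47 and Pfkfb3 0.48. Of all 12452 genes tested from ctrl to 24h in Cacnb3-/- cultures, 523 were lower and 540 higher by the same fit. From 0p5h to 24h the counts of the 10 with the block were 4 in WT (0 at 2-fold, 1 to 4 with a culture left out). In Cacnb3-/- cultures 8 passed (0 with the share, 2 at 2-fold, 8 to 9 with a culture left out). The interaction from ctrl to 24h passed 0 genes with and without the replicate block. That from 0p5h to 24h passed 2 by DESeq2 and 0 to 1 with a culture left out.

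With the mitochondrial share as a covariate the difference between genotypes reversed: in ctrl Slc2a1 0.66, Hk2 0.94, Pfkp 0.43, Aldoa 0.22, Gapdh 0.30, Eno1 0.33 and Pkm 0.30, in 0p5h Slc2a1 0.50, Pfkp 0.32, Aldoa 0.40, Gapdh 0.31, Eno1 0.51 and Pkm 0.46, and in 24h Slc2a1 0.38, Hk2 0.43, Pfkp 0.0701, Aldoa 0.0551, Gapdh 0.17, Eno1 0.23, Pkm 0.22 and Ldha 0.30. Some blocked changes reversed with 1 culture left out. From ctrl to 0p5h in WT these ran from -0.0727 to 0.10 for Aldoa, -0.11 to 0.0654 for Eno1, -0.0839 to 0.0634 for Pkm and -0.0530 to 0.0852 for Ldha (highest without p974s864), and from -0.32 to 0.0447 for Gapdh and -0.0770 to 0.0985 for Pgk1 (reversed without p974s846). Gapdh from 0p5h to 24h in WT ran from -0.52 to 0.0273 (without p974s850), and the Slc2a1 interaction from ctrl to 0p5h from -0.0050 (without p974s864) to 0.20.

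For the mitochondrial slopes, the count in ctrl went from 4 to 7 by DESeq2, 0 with library size and 1 to 4 with a culture left out, that in 0p5h from 1 to 2 by DESeq2 or with no genotype term, 0 with library size and 0 to 3 with a culture left out (0 without any 1 of the 5 WT cultures or Cacnb3-/- p974s865, 3 without Cacnb3-/- p974s843), and that in 24h from 2 to 1 with library size and 1 to 4 with a culture left out (4 without Cacnb3-/- p974s843). At 0p5h, the slope of Pfkfb3 ran from -0.12 (without Cacnb3-/- p974s865) to 0.23, and those of Pgk1 (0.0502) and Ldha (0.0302) with no genotype term. The mitochondrial share itself, Cacnb3-/- minus WT, was 4.05, 3.58 and 6.98 percentage points in ctrl, 0p5h and 24h, with 3.04 to 4.997, 2.43 to 4.51 and 5.34 to 8.67 with a culture left out. The cause of these shifts was not tested. Of the single-gene fold changes without the block, 998 values under other settings kept their direction and side of the threshold, 31 came to pass it and 21 reversed, and with a culture left out 897 kept them and 3 came to pass.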
